A study of Mus musculus with 11 samples.

Results

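The cell division cycle was followed through 39 of its genes in epithelial cells of the mouse small intestine. The genes came from a named list of S phase and mitotic factors, and all 39 were among the 11366 genes of the deposited table. By their main role, 15 were taken as S phase members and 24 as mitotic members. Some are not limited to 1 phase: Ccne1 acts before S phase, Ccna2 in both S phase and mitosis, and Hmgb2 is a chromatin protein of dividing cells.

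Sorted epithelial cells of wild-type mice were profiled by RNA-seq in 3 groups, and no allele or agent beyond diet and colonization is labelled. Control mice ate standard chow (3 libraries, numbered 2, 4 and 5). NFF mice ate a diet low in fermentable fiber (4 libraries). SFB mice ate standard chow and were colonized with SFB (4 libraries), read here as segmented filamentous bacteria, which attach to the epithelium of the ileum. SFB and NFF mice therefore differed in both diet and colonization. Cells were live, EpCAM-positive and negative for CD45, CD31 and CD44, and CD44 is a surface protein of crypt cells, so the gate was set against the compartment in which most epithelial division takes place. Age and strain are not labelled. It is also not labelled whether each library is a different animal, so the p-values refer to the spread among these libraries, part or all of which may be technical.

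In the intestine, stem cells and their transit-amplifying daughters divide in the crypt, and the cells leave the cycle as they move onto the villus and become absorptive or secretory cells. In G1, Cdc6 and Cdt1 load the MCM helicase onto replication origins, and E2F factors switch on the genes for replication and for the supply of nucleotides. In G2 and mitosis, genes under the MuvB complex with B-Myb and FoxM1 make the cyclins, kinases, checkpoint proteins and motors that divide the chromosomes. Transcripts of both kinds mark dividing cells, and in a bulk sample more dividing cells and more RNA per dividing cell cannot be told apart.

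The promoters of 32 of the 39 genes were found by symbol in RefSeq (GRCm38.p6), 13 of S phase members and 19 of mitotic members. The 250 bases before the start of transcription given there were searched on both strands. Some of these windows overlapped annotated untranslated regions (UTR), as in all 250 bases for Mcm7 and 140 for Aurka, and they were kept in the counts. The letters searched were CCAAT, the box bound by NF-Y, TTTGAA and TTCGAA, the CHR element bound by MuvB, and TTTNNCGC and GGCGGGAA, both forms of the E2F site, which can overlap each other. CCAAT was in 16 of 19 mitotic promoters (84.2%), in 8 of 13 S phase promoters (61.5%) and in 34.5% of the promoters of all 27025 genes searched. CCAAT together with a CHR letter string was in 9 of 19 mitotic promoters (47.4%), in 2 of 13 S phase promoters (15.4%) and in 6.21% of all. An E2F string was in 5 of 13 S phase promoters (38.5%), in 1 of 19 mitotic promoters (5.26%) and in 5.69% of all. A match of letters is a description of the sequence and not a bound site. Of the 4 promoters printed here 5′ to 3′, with the matches in capitals, Mcm6 and Hmgb2 belong to highly expressed members of each class, and Rrm1 and Ccnb2, chosen after their values were seen, to members whose difference between SFB and NFF passed the test in the results that follow. Mcm6 lies at chr1:128359706-128359955 on the minus strand, Rrm1 at chr7:102441445-102441694 on the plus strand, Hmgb2 at chr8:57511593-57511842 on the plus strand and Ccnb2 at chr9:70421555-70421804 on the minus strand.
Mcm6: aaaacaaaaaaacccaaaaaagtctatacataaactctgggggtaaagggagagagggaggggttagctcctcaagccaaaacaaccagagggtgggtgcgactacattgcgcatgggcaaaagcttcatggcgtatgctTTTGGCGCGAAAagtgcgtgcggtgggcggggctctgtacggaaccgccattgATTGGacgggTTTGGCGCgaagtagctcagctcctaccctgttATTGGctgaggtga
Rrm1: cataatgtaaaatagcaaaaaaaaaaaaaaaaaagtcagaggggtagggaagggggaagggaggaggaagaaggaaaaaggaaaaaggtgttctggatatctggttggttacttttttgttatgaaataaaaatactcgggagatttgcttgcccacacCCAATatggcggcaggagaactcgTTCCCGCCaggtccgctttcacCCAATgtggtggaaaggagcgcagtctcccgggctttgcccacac
Hmgb2: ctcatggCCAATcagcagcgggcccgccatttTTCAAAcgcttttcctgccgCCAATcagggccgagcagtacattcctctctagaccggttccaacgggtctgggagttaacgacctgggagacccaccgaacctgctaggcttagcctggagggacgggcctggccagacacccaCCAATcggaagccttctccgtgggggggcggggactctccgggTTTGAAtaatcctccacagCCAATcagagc
Ccnb2: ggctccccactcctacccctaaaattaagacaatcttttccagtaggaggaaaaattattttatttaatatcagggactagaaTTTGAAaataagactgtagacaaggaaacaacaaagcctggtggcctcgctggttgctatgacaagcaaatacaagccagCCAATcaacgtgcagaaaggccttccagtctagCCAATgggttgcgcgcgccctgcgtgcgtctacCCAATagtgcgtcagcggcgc
The Mcm6 promoter held TTTNNCGC on both strands beside CCAAT read on the other strand (ATTGG), and the Rrm1 promoter held 2 CCAAT boxes and the E2F string GGCGGGAA on the minus strand (TTCCCGCC). Both mitotic promoters held several CCAAT boxes, which in Hmgb2 stood beside TTTGAA on either strand and in Ccnb2 beside a single TTTGAA farther upstream.

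Library levels set the frame for every result. Summed RPKM (reads scaled to the length of the gene model and to the total of the library) was 237248 to 302661 per library, and depth is unknown because the table holds no counts. Epcam lay between 489 and 670 RPKM in every library, and the CD45 gene Ptprc at 2.48 RPKM or less. Not all of the 9 epithelial markers were as even. Krt18, a keratin, lay between 544 and 875 RPKM in Control, 575 and 1157 in NFF and 316 and 427 in SFB. The CD44 gene itself lay between 0.333 and 2.29 RPKM. SFB 4 stood apart: it had the highest value of 33.3% of all tested genes, the lowest summed level of the 12 mature enterocyte markers and the highest of the 14 measured crypt stem cell markers. Results that rest on SFB 4 or on Control 4, the library of highest member levels within its group, are given with and without them.

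Every one of the 39 genes was highest in SFB 4, in both phase classes, and the next highest library was Control 4 for 36 genes and SFB 3 for the other 3, all mitotic. The lowest library was NFF 4 for 18 genes, NFF 1 for 11, Control 2 for 6 and NFF 2 for 4. Between the lowest and the highest library, levels differed 2.42-fold for Pcna to 36.6-fold for Aurkb, with a median of 15.6-fold over the 39 genes against 1.99-fold over all tested genes. Hmgb2 had the highest mean over the libraries (36.4 RPKM), and Cdc6, at 2.25 RPKM or less, was the only member that fell short of the filter of at least 1 RPKM in 3 libraries. Of the 38 tested members, 0 passed that filter through 1 group alone, and 4 (Ccne1, Gins2, Foxm1 and Cenpf) passed it through Control and SFB libraries without NFF.

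**Figure D1:**
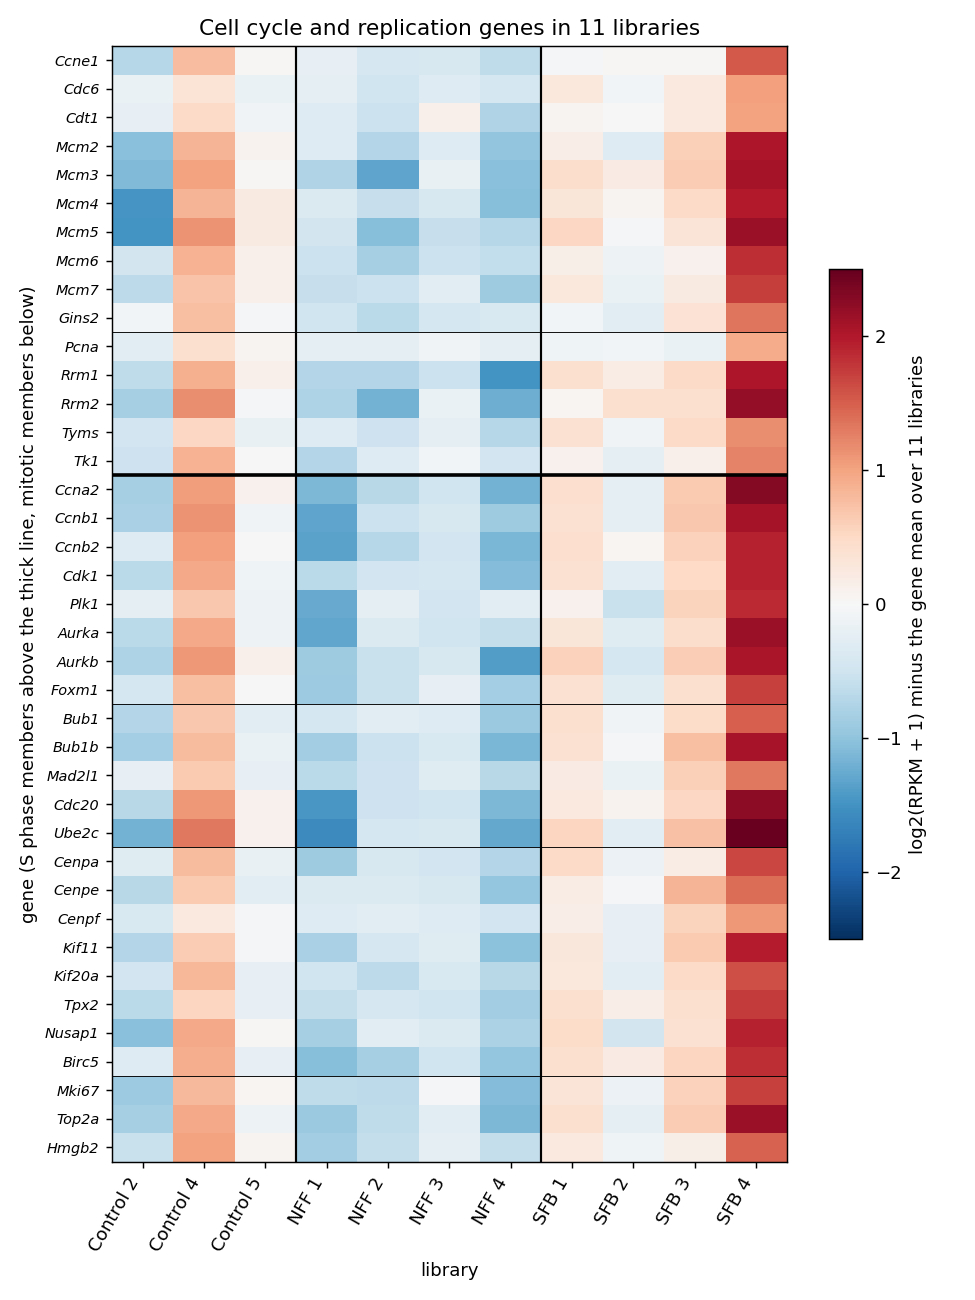
Heat map of the 39 cell cycle genes in 11 libraries, ordered by role, with the color giving log2(RPKM + 1) of each library minus the gene's mean over the libraries. The SFB 4 column is the highest for all 39 genes, Control 4 is the next highest for 36, and the lowest value falls in an NFF library or in Control 2.

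Licensing and initiation genes prepare origins for replication. In the order Control 2, 4 and 5, NFF 1 to 4 and SFB 1 to 4, which holds for every series of values here, Mcm6, a subunit of the MCM helicase, was at 5.61, 15.8 and 8.94 RPKM in Control, 5.28, 4.16, 5.33 and 5.01 in NFF and 9.06, 7.42, 8.86 and 31.9 in SFB. Control lay above NFF in every library for Mcm6, whereas the SFB libraries other than SFB 4 lay inside the Control range. Mcm5, another subunit, was at 0.991, 11.2 and 5.59 RPKM in Control, 3.07, 1.68, 2.77 and 2.44 in NFF and 7.10, 4.52, 6.03 and 24.2 in SFB. Mcm4 was at 1.19, 9.96 and 6.06 RPKM in Control, 3.74, 3.06, 3.58 and 1.89 in NFF and 6.45, 5.40, 7.42 and 22.9 in SFB. For Mcm4 and Mcm5 the lowest of all 11 values was that of Control 2, and Control 4 exceeded every library but SFB 4, so the Control libraries spanned the NFF range. Mcm3 was at 0.647, 6.11 and 2.64 RPKM in Control, 1.12, 0.429, 2.11 and 0.709 in NFF and 3.83, 3.09, 4.54 and 13.97 in SFB, with all SFB libraries above all NFF libraries. Gins2, a subunit of the GINS complex of the helicase, was at 0.902, 2.35 and 0.970 RPKM in Control, 0.417, 0.245, 0.465 and 0.528 in NFF and 0.917, 0.648, 1.55 and 4.06 in SFB. Gins2 was lower in each NFF library than in each Control library, but the difference in means of -0.72 ± 0.33 (SE) on the log2(RPKM + 1) scale did not pass the test (limma, Benjamini-Hochberg adjusted p = 0.896). Cdt1, the MCM loading factor, was at 2.11, 3.94 and 2.36 RPKM in Control, 1.84, 1.44, 2.87 and 1.10 in NFF and 2.72, 2.53, 3.20 and 6.18 in SFB, and it was the only member for which Control 4 and 5 did not both exceed every NFF library. The remaining licensing genes, Ccne1, Cdc6, Mcm2 and Mcm7, had the same highest library and differed 8.72-fold (Mcm7) or more between their highest and lowest libraries.

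Among the genes of the replication fork and of nucleotide supply, Pcna, the sliding clamp of DNA polymerases, which also serves DNA repair, was at 11.3, 18.7 and 14.6 RPKM in Control, 11.7, 11.5, 12.9 and 11.5 in NFF and 12.8, 13.1, 12.2 and 27.4 in SFB. Outside SFB 4 and Control 4 the Pcna values lay between 11.3 and 14.6 RPKM, and over all libraries its ratio of highest to lowest was the smallest of the 39 genes. Rrm1, the large subunit of ribonucleotide reductase, was at 3.29, 11.3 and 6.22 RPKM in Control, 3.00, 2.98, 3.57 and 1.36 in NFF and 7.78, 6.54, 8.27 and 25.9 in SFB. Rrm2, the subunit of that enzyme made in S phase, was at 2.04, 11.2 and 4.33 RPKM in Control, 2.17, 1.38, 3.87 and 1.34 in NFF and 4.603, 6.21, 6.16 and 23.9 in SFB. For Rrm1 and Rrm2 every SFB library exceeded every NFF library, whereas Control 2 lay within the NFF range. Tyms, thymidylate synthase, also separated SFB from NFF (2.46 to 7.15 RPKM against 1.24 to 2.08), and Tk1, the thymidine kinase of the salvage route, did not (2.43 to 8.57 against 1.41 to 2.85).

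Cyclins and kinases drive entry into mitosis. Ccnb2, a B-type cyclin, was at 14.3, 37.9 and 18.2 RPKM in Control, 6.64, 10.7, 12.7 and 7.69 in NFF and 24.8, 18.8, 27.8 and 71.9 in SFB. All 4 NFF values of Ccnb2 lay under all Control and all SFB values. Ccna2, cyclin A2, was at 3.05, 13.7 and 6.69 RPKM in Control, 2.30, 3.40, 4.09 and 2.17 in NFF and 8.55, 5.15, 10.2 and 34.1 in SFB. Plk1, a kinase of mitotic entry and spindle assembly, was at 7.46, 15.05 and 8.15 RPKM in Control, 3.22, 7.60, 6.20 and 7.24 in NFF and 9.75, 5.78, 13.7 and 35.3 in SFB. Plk1 overlapped between SFB and NFF, because SFB 2 lay under 3 of the NFF libraries. The partner kinase Cdk1 reached 13.97 RPKM and the factor Foxm1 6.46 RPKM, both in SFB 4, and Aurkb, the kinase of the chromosomal passenger complex, ranged from 0.385 in NFF 4 to 14.1 in SFB 4.

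Genes of the spindle checkpoint and of anaphase onset hold and then release the sister chromatids. Cdc20, which activates the anaphase-promoting complex, was at 8.59, 31.6 and 15.6 RPKM in Control, 4.61, 9.78, 9.98 and 6.12 in NFF and 17.4, 15.5, 21.0 and 71.9 in SFB. Ube2c, the ubiquitin-conjugating enzyme of that complex, was at 2.43, 18.3 and 7.35 RPKM in Control, 1.56, 4.68, 4.84 and 2.20 in NFF and 10.2, 5.38, 11.8 and 42.0 in SFB. Bub1b, which encodes the checkpoint protein BubR1, was at 1.75, 7.55 and 3.40 RPKM in Control, 1.69, 2.39, 2.80 and 1.23 in NFF and 5.41, 3.88, 7.38 and 19.5 in SFB. In all 3 genes SFB lay above NFF without overlap and overlapped Control.

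Centromere and spindle genes included 2 of the 4 members that passed the test between SFB and NFF. Birc5, survivin, a subunit of the chromosomal passenger complex, was at 5.36, 13.8 and 5.89 RPKM in Control, 2.77, 3.45, 4.61 and 3.05 in NFF and 9.38, 8.10, 10.5 and 27.3 in SFB. Tpx2, the spindle assembly factor that activates Aurora A, was at 0.860, 3.27 and 1.57 RPKM in Control, 0.973, 1.21, 1.08 and 0.628 in NFF and 2.90, 2.35, 2.93 and 8.99 in SFB. The NFF values of Birc5 lay under those of both other groups, and those of Tpx2 lay under all SFB values but overlapped Control. Cenpa, the histone of centromeres, was at 2.63, 6.80 and 2.94 RPKM in Control, 1.42, 2.41, 2.21 and 1.68 in NFF and 5.28, 3.05, 4.11 and 13.3 in SFB. Kif11, the motor that separates spindle poles, was at 1.18, 4.62 and 2.503 RPKM in Control, 1.05, 1.68, 1.90 and 0.759 in NFF and 3.37, 2.14, 4.63 and 13.1 in SFB. Cenpf, a kinetochore protein, was at 0.608, 1.48 and 1.04 RPKM in Control, 0.670, 0.707, 0.666 and 0.496 in NFF and 1.33, 0.803, 2.07 and 3.40 in SFB. Cenpf was near 1 RPKM in most libraries, where the log2(RPKM + 1) scale understates changes.

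The chromatin genes included the most abundant member, Hmgb2, a DNA-bending protein, at 21.6, 65.5 and 33.7 RPKM in Control, 17.0, 20.8, 26.8 and 21.0 in NFF and 38.1, 29.5, 35.6 and 90.8 in SFB. Top2a, the topoisomerase that untangles sister chromatids, was at 1.79, 8.53 and 3.55 RPKM in Control, 1.60, 2.18, 3.12 and 1.26 in NFF and 5.49, 3.20, 6.70 and 21.0 in SFB. Mki67, the antigen Ki-67 that coats mitotic chromosomes, was at 1.87, 8.35 and 4.52 RPKM in Control, 2.45, 2.41, 4.26 and 1.52 in NFF and 5.69, 3.82, 6.99 and 16.6 in SFB. Hmgb2 and Top2a were higher in each SFB than in each NFF library, whereas for Mki67 the value of SFB 2 lay under that of NFF 3.

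NFF against Control compares the diet low in fermentable fiber with standard chow. All 38 tested members had a lower mean in NFF, and 0 passed the test in limma (adjusted p under 0.05 over 10482 genes), which called 0 genes in the whole table (0%). The smallest adjusted p among members was 0.875, that of Ccnb2, which averaged 23.5 ± 12.7 RPKM over 3 Control, 9.45 ± 2.80 over 4 NFF and 35.8 ± 24.4 over 4 SFB libraries (mean ± SD). The log2 difference of Ccnb2 was -1.15 ± 0.42 (SE), that of Cdc20 -1.06 ± 0.52 and that of Pcna, the smallest, -0.27 ± 0.25. At an unadjusted p under 0.05 there were 3 members (Ccnb2, Birc5 and Rrm1), beside 4.82% of all genes. The median difference was -0.66 over the tested members, -0.59 for S phase and -0.73 for mitotic members, and -0.0085 over all tested genes, of which 51.7% lay below 0. The NFF and Control libraries did not overlap for 7 of the 39 members (Cdc6, Mcm6, Gins2, Ccnb2, Mad2l1, Cenpa and Birc5, 6 of them tested), beside 4.42% of tested genes lower in NFF without overlap. Gins2 had passed the filter without NFF libraries, which favored a lower level in NFF.

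The Control libraries differed among themselves. Control 4 and Control 5 both exceeded every NFF library in 38 of 39 genes, but Control 2 lay within or under the NFF range in 32, and the ratio of Control 2 to the NFF mean had a median of 0.956 (0.388 to 2.18). Control 4 exceeded the mean of the other Control libraries 1.44- to 3.84-fold (median 2.69, against 1.06 over all tested genes), with medians of 2.51 for S phase and 2.87 for mitotic members. Without Control 4 the member median of NFF against Control was -0.28 (S phase -0.19, mitotic -0.31) and 2 members lay above 0, Mcm4 and Bub1. Without Control 2 the member median was -1.05, and 0 members and 0% of all genes passed the test in either fit. At an unadjusted p under 0.05 there were 0 members without Control 4 and 19 without Control 2, beside 3.58% and 6.96% of all genes.

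In SFB against Control, which compares SFB-colonized mice with Control mice on the same chow, all 38 tested members had a higher mean in SFB and 0 passed the test, beside 21 genes of the whole table (0.200%, with 0.124% called higher). At an unadjusted p under 0.05 there was 1 member, Tpx2, beside 12.1% of all genes. The largest log2 differences were those of Bub1b (0.87 ± 0.46, adjusted p = 0.484) and Mcm3 (0.86 ± 0.51, adjusted p = 0.531), and the smallest were those of Pcna (0.08 ± 0.25) and Gins2 (0.12 ± 0.33). The member median was 0.60 (S phase 0.50, mitotic 0.61), against 0.012 over all tested genes, of which 52.5% lay above 0. The libraries of SFB and Control overlapped for all 39 members, beside 3.66% of tested genes that were higher in SFB without overlap.

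That median depended on which of the high libraries was kept. SFB 4 exceeded the mean of SFB 1 to 3 by 2.07- to 4.66-fold (median 3.56, against 1.12 over all tested genes), with medians of 3.56 for S phase and 3.57 for mitotic members. Without SFB 4 the median of SFB against Control was 0.16 (S phase 0.11, mitotic 0.16), and 31 of the 38 members lay above 0. Without Control 4 it was 1.02, and without both libraries 0.59 (S phase 0.49, mitotic 0.60), with 37 members above 0 and 0 members called in each of these fits, beside 0.897%, 0.372% and 0.992% of all genes. At an unadjusted p under 0.05 there were 0 members without SFB 4, 15 without Control 4 and 11 without both, beside 17.0%, 13.7% and 16.5% of all genes. The value without both high libraries was thus close to that of the full set, while leaving out SFB 4 alone lowered it and leaving out Control 4 alone raised it. Without Control 2, the library of lowest member levels in its group for 37 genes, it was 0.21.

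SFB against NFF held the members that passed the test: Birc5, Ccnb2, Rrm1 and Tpx2 rose in SFB, 1 of 14 tested S phase and 3 of 24 mitotic members, beside 769 genes of the table (7.34%, with 3.14% called higher). Birc5, on chromosome 11 from 117849251 to 117855743, averaged 8.35 ± 4.74 RPKM over 3 Control, 3.47 ± 0.806 over 4 NFF and 13.8 ± 9.05 over 4 SFB libraries (mean ± SD), and the log2 difference was 1.58 ± 0.35 (SE, limma adjusted p = 0.022). Ccnb2, on chromosome 9 from 70407692 to 70421547, differed by 1.66 ± 0.39 (adjusted p = 0.028). Rrm1, on chromosome 7 from 102441695 to 102469771, averaged 6.95 ± 4.08 RPKM over 3 Control, 2.73 ± 0.952 over 4 NFF and 12.1 ± 9.20 over 4 SFB libraries (mean ± SD) and differed by 1.65 ± 0.41 (adjusted p = 0.035). Tpx2, on chromosome 2 from 152847964 to 152895321, averaged 1.90 ± 1.24 RPKM over 3 Control, 0.974 ± 0.250 over 4 NFF and 4.29 ± 3.14 over 4 SFB libraries (mean ± SD) and differed by 1.28 ± 0.33 (adjusted p = 0.040). In each of the 4 genes the 4 SFB libraries all lay above the 4 NFF libraries, and coordinates are those of the GENCODE M21 gene models on GRCm38.

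**Figure D2:**
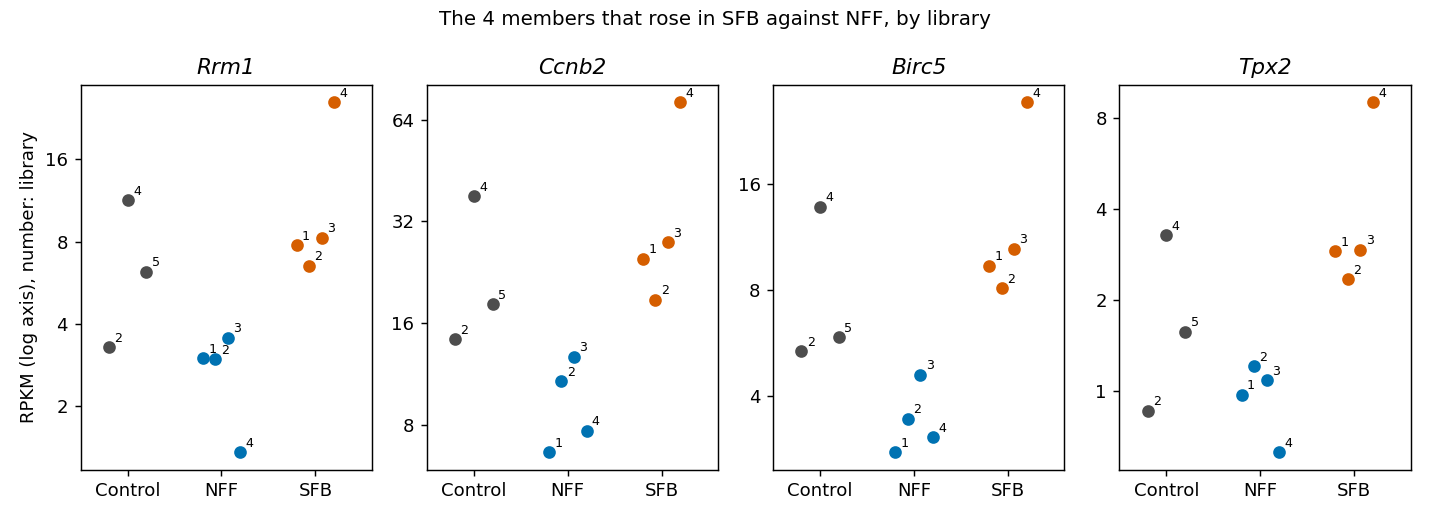
RPKM of Rrm1, Ccnb2, Birc5 and Tpx2 on a log axis, with 1 point per library, marked with its number, in Control, NFF and SFB. All SFB points lie above all NFF points, and SFB 4 is the highest point of each gene, as for Ccnb2 at 71.9 RPKM against 6.64 to 12.7 in NFF.

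The other 34 tested members were also higher on average in SFB than in NFF and did not pass the test. The largest of these differences were those of Ube2c (1.79 ± 0.60, adjusted p = 0.088), Cdc20 (1.67 ± 0.48, adjusted p = 0.055) and Mcm3 (1.67 ± 0.47, adjusted p = 0.054), and the smallest those of Pcna (0.35 ± 0.23, adjusted p = 0.357) and Cdt1 (0.70 ± 0.26, adjusted p = 0.114). For Pcna the 95% interval ran from -0.15 to 0.85. At an unadjusted p under 0.05 there were 36 of 38 members, 12 S phase and 24 mitotic, beside 25.7% of all genes. The member median was 1.21, against 0.020 over all tested genes, of which 52.7% lay above 0. The libraries did not overlap for 30 of 39 members (11 of 15 S phase, 19 of 24 mitotic). Of the 38 tested members these were 29, beside 10.1% of tested genes higher in SFB without overlap. Among the 30, Cdc6 was not tested. Ccne1, Gins2 and Cenpf, also among them, were under 1 RPKM in every NFF library, so that the filter favored a higher level in SFB than in NFF. The members that overlapped were Cdt1, Mcm2, Pcna, Tk1, Plk1, Aurkb, Foxm1, Nusap1 and Mki67.

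**Figure D3:**
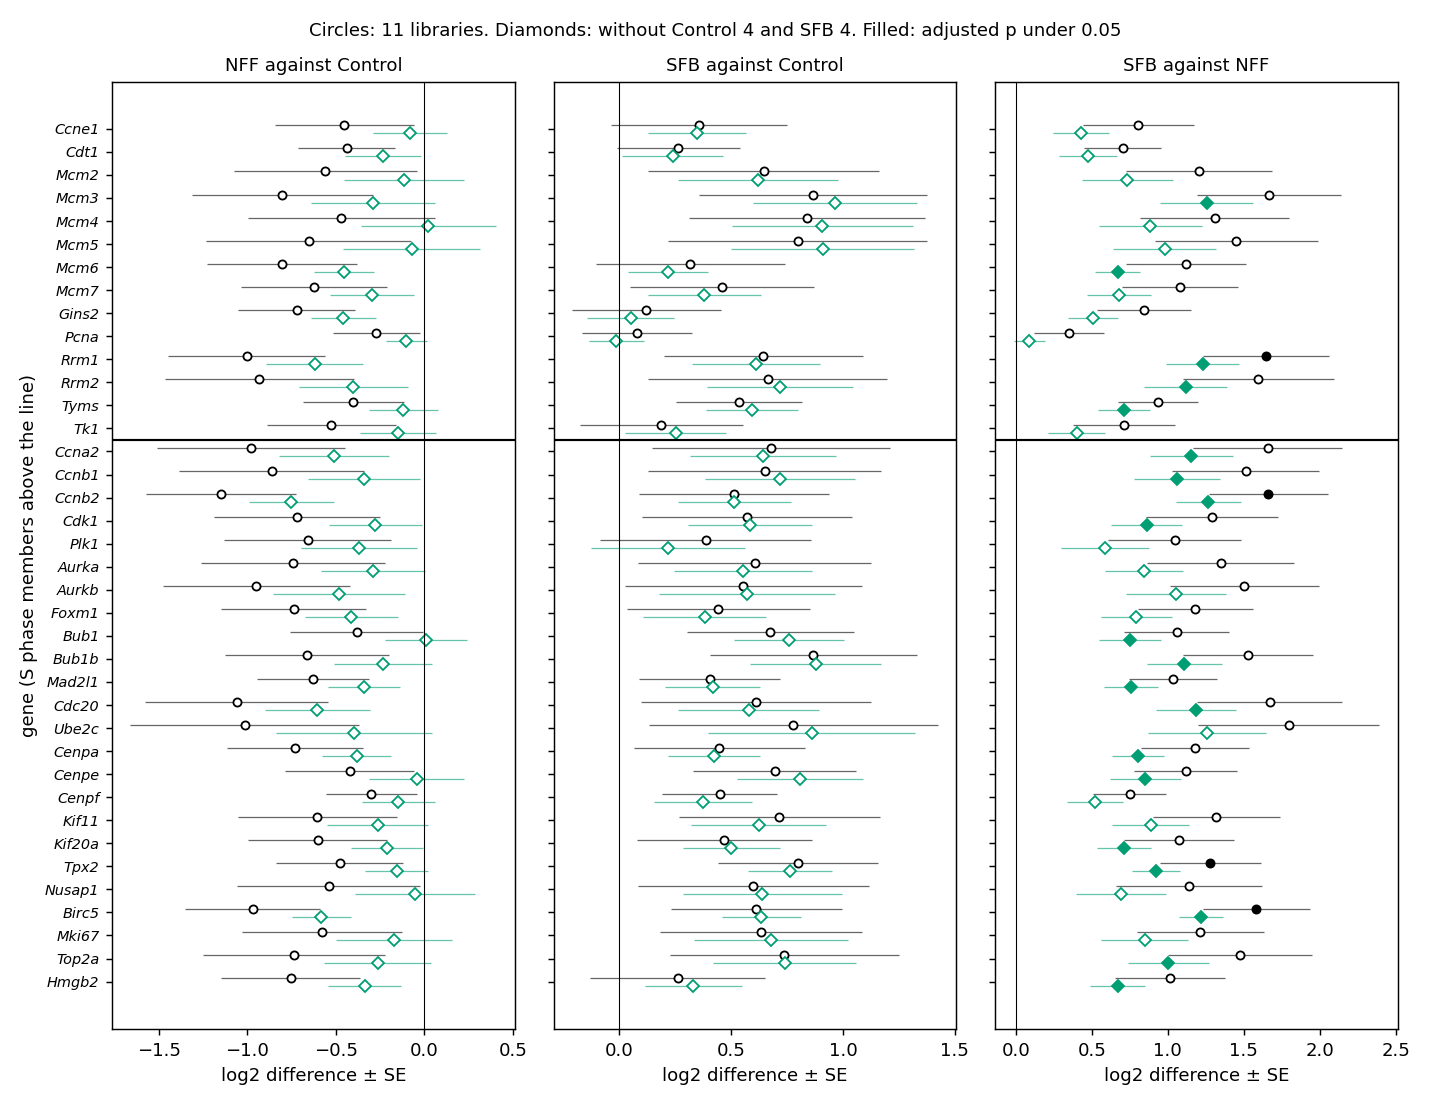
Log2 difference ± SE of each tested member in the 3 comparisons, on the log2(RPKM + 1) scale, with all 11 libraries (circles) and without Control 4 and SFB 4 (diamonds), filled where the adjusted p was under 0.05. With all libraries, the 38 members lie below 0 in NFF against Control and above 0 in both SFB comparisons, and the members called in SFB against NFF are Birc5, Ccnb2, Rrm1 and Tpx2.

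In SFB against NFF, members were also called without SFB 4. Because SFB 4 was the highest library of every gene, leaving it out could not change which 30 members were without overlap. That count is thus no measure of the weight of SFB 4. Without SFB 4 the same 4 members passed the test, beside 7.03% of all genes (3.03% called higher). Their log2 differences were then 1.22 for Birc5, 1.27 for Ccnb2, 1.23 for Rrm1 and 0.92 for Tpx2 (adjusted p = 0.021, 0.032, 0.042 and 0.042), and the member median was 0.85. Without both SFB 4 and Control 4, 20 members were called, 5 S phase and 15 mitotic, including these 4, beside 9.45% of all genes (4.42% called higher). Other single libraries mattered to the calls of members, given here beside the share of all genes called higher in the same fit. There were 0 called without NFF 1, NFF 2 or NFF 4 (beside 1.78%, 0.897% and 1.06%), and at an unadjusted p under 0.05 there were 32, 34 and 31 members, beside 22.9%, 19.7% and 19.1% of all genes. There was 1 called without SFB 3 (beside 1.73%), and there were 2 without Control 5, NFF 3 or SFB 1 (beside 2.34%, 1.54% and 2.03%). There were 13 called without Control 4 (beside 3.60%, or 7.97% in either direction), 14 without Control 2 (beside 4.05%) and 20 without SFB 2 (beside 3.79%). The 3 comparisons share their groups, so their differences are not independent of each other.

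S phase and mitotic members were compared as classes by the mean log2(RPKM + 1) of each class in each library. The S phase mean was 2.21 ± 0.72 over 3 Control, 1.61 ± 0.22 over 4 NFF and 2.69 ± 0.74 over 4 SFB libraries (mean ± SD). The mitotic mean was 2.39 ± 0.75, 1.67 ± 0.28 and 2.98 ± 0.86 in the same groups. The difference, S phase minus mitotic, was -0.21, -0.25 and -0.063 in Control 2, 4 and 5, 0.26, -0.36, -0.093 and -0.042 in NFF 1 to 4, and -0.33, -0.031, -0.41 and -0.40 in SFB 1 to 4. It averaged -0.18 ± 0.10 in Control, -0.059 ± 0.25 in NFF and -0.29 ± 0.18 in SFB, and the groups overlapped. Within groups the SD of this difference was 0.195, against 0.597 for the S phase and 0.667 for the mitotic mean, pooled over the groups. In NFF alone the SD of the difference (0.25) exceeded that of the S phase mean (0.22).

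**Figure D4:**
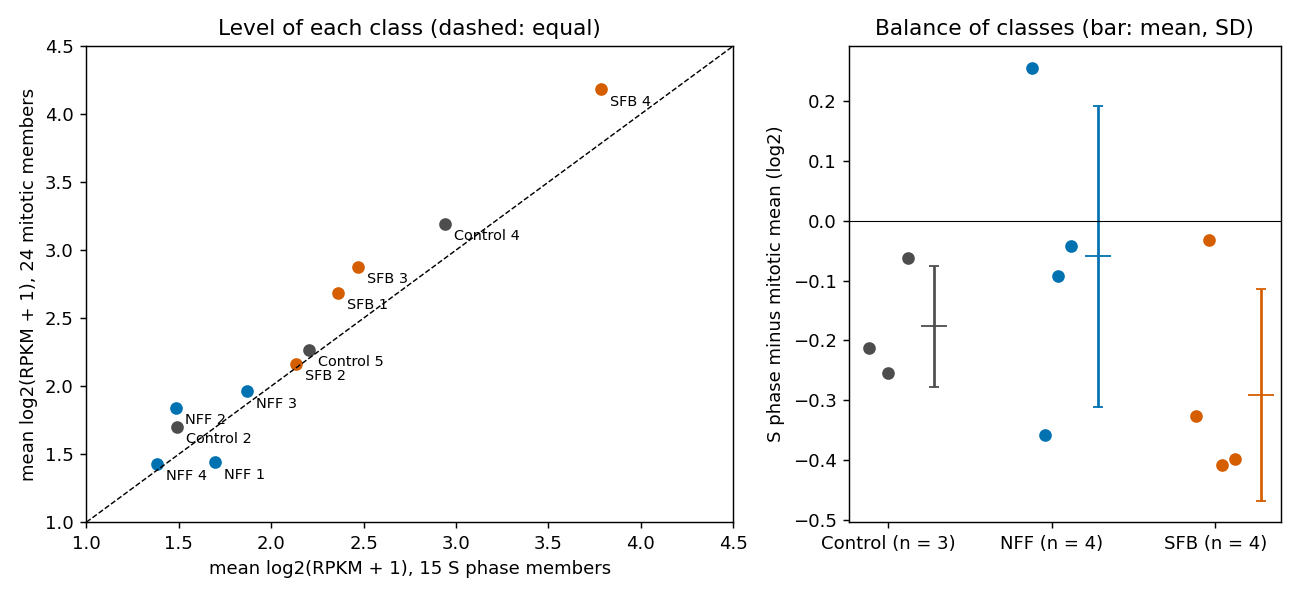
Mean log2(RPKM + 1) of the 15 S phase members against that of the 24 mitotic members, with equality dashed, and their difference by group, with 1 point per library and the group mean and SD (bars). NFF 4 is the lowest and SFB 4 the highest library of both classes, and the difference lies between -0.41 (SFB 3) and 0.26 (NFF 1).

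Among the members, NFF 1 was the only library with a positive balance, and it and NFF 2 had the widest contrast within a group. On the further S phase and mitotic lists described below, the same difference ran from 0.015 to 0.24 in NFF. There it was -0.088 to 0.15 in Control and -0.25 to 0.11 in SFB, so a positive balance was not particular to NFF 1. NFF 1 had more Mcm5 (3.07 against 1.68 RPKM) and Mcm2 (2.93 against 1.95) than NFF 2 but less Plk1 (3.22 against 7.60) and Ccnb2 (6.64 against 10.7). Of the 15 S phase members, the lowest library was Control 2 for 5 and NFF 2 for 4, and of the 24 mitotic members it was NFF 4 for 13 and NFF 1 for 10. In Control 2, Mcm4 (1.19 RPKM) and Mcm5 (0.991) were the lowest of all libraries while Ccnb2 (14.3) stood above every NFF library. These genes were picked after their values were seen.

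By role, the median log2 difference of SFB against NFF was 1.12 for the 9 tested licensing genes, 0.94 for the 5 of fork and nucleotide supply, 1.43 for the 8 cyclins, kinases and Foxm1, 1.53 for the 5 of checkpoint and anaphase, 1.16 for the 8 of centromere and spindle and 1.21 for the 3 of chromatin. The NFF against Control medians ran from -0.80 for the cyclins, kinases and Foxm1 to -0.53 for fork and nucleotide supply, and those of SFB against Control from 0.46 for licensing to 0.68 for the checkpoint and anaphase genes. The medians of the mitotic members exceeded those of the S phase members in size in all 3 comparisons, by 0.14, 0.11 and 0.18. Genes of a class share these libraries, and no test of the difference between classes was made.

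Genes of the cycle outside the 39 had medians of the same sign in each comparison. Of 54 tested genes on a further S phase list, 18 rose in SFB against NFF, beside 3.14% of all genes, with a median of 0.74 and 53 above 0, and 13 were called without SFB 4, beside 3.03%. Of the 18, 3 (Brca1, Cdc7 and Exo1) had passed the filter through SFB libraries alone, so that they had to be higher there. Examples were Uhrf1, which carries DNA methylation through replication (1.71 ± 0.46, adjusted p = 0.044), Pole, the catalytic subunit of polymerase epsilon (1.05 ± 0.18, adjusted p = 0.0072), Gins1 (1.02 ± 0.21, adjusted p = 0.015) and Atad2 (1.11 ± 0.28, adjusted p = 0.037). Of 60 tested genes on a further mitotic list, 19 rose, beside 3.14% of all genes, with a median of 0.94 and 57 above 0. Without SFB 4, 11 were called, beside 3.03%. Of the 19, 1 had passed the filter through SFB libraries alone. Examples were the centrosomal kinase Nek2 (1.76 ± 0.43, adjusted p = 0.033), Cdca3 (1.54 ± 0.39, adjusted p = 0.036), the motor Kif22 (1.31 ± 0.34, adjusted p = 0.040) and the cohesin protector Sgo1 (1.29 ± 0.32, adjusted p = 0.033). Of the examples of both lists, Pole, Atad2 and Sgo1 were under 1 RPKM in every NFF library. They passed the filter through Control and SFB libraries, so that it favored a higher level in SFB than in NFF. Such genes were not counted over the lists. In NFF against Control 0 genes of either list were called (2 S phase and 4 mitotic at an unadjusted p under 0.05, beside 4.82% of all genes), with medians of -0.33 and -0.41, or -0.11 and -0.14 without Control 4. In SFB against Control 0 were called (17 and 18 unadjusted, beside 12.1%), with medians of 0.43 and 0.54. Those medians were 0.16 and 0.25 without SFB 4, 0.64 and 0.81 without Control 4, and 0.43 and 0.56 without both.

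Cyclin D1, which with its kinases drives cells through G1 towards S phase, had the largest difference of the 11 tested G1 genes. Ccnd1 was at 1.67, 8.16 and 6.55 RPKM in Control, 2.34, 2.24, 3.71 and 1.91 in NFF and 11.9, 12.3, 12.6 and 22.7 in SFB. Every SFB value of Ccnd1 exceeded every value of both other groups. It rose in SFB against NFF by 2.14 ± 0.35 (SE, adjusted p = 0.0049), and in SFB against Control the difference of 1.43 ± 0.37 did not pass the test (adjusted p = 0.146). The only other G1 gene called in SFB against NFF was E2f3 (0.56 ± 0.15, adjusted p = 0.041), so that 2 of 11 were called higher, beside 3.14% of all genes. Of the 16 tested brakes of the cycle, such as inhibitors of cyclin-dependent kinases, 0 were called in any of the 3 comparisons, beside 0%, 0.200% and 7.34% of all genes. At an unadjusted p under 0.05 there were 0, 2 and 4, beside 4.82%, 12.1% and 25.7% of all genes. The medians of the brakes were 0.0066, 0.020 and -0.0027. The lowest p in SFB against NFF among them were those of Btg2, an antiproliferative factor (-0.91 ± 0.28, adjusted p = 0.074), and Cdkn1c, which encodes the inhibitor p57 (-1.45 ± 0.48, adjusted p = 0.084).

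Markers of the crypt went in different directions, and their part in the results was not tested. Olfm4, a stem cell marker of the crypt, was at 6.36, 30.3 and 17.6 RPKM in Control, 3.58, 1.27, 6.11 and 4.38 in NFF and 17.4, 20.02, 40.5 and 101 in SFB. Olfm4 rose in SFB against NFF by 3.00 ± 0.57 (adjusted p = 0.011), whereas Sox9, a factor of crypt cells, fell by 0.74 ± 0.19 on the log2 scale (adjusted p = 0.037). Cd44 was also called (0.80 ± 0.16), but it had passed the filter through SFB libraries alone, so that it had to be higher there. Those were the 3 called of 13 tested stem cell markers (14 of 16 listed were measured), beside 7.34% of all genes called in either direction. The median of the 13 was 0.33 with 3 below 0, or 0.18 without SFB 4. Lgr5 ran from 0.551 to 1.96 RPKM over all libraries. The summed RPKM of that list was 57.4 to 120 in Control, 57.8 to 74.3 in NFF and 63.6 to 234 in SFB, highest in SFB 4, then in SFB 3 and Control 4, with SFB 2 inside the NFF range.

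Mature enterocyte markers stood in the reverse order over the libraries of highest member levels. Their summed RPKM was 4338 to 12373 in Control, 6714 to 8270 in NFF and 2280 to 8220 in SFB, lowest in SFB 4 and next lowest in Control 4, and highest in Control 2. Sis, the brush-border enzyme sucrase-isomaltase, fell in SFB against NFF by 1.27 ± 0.31 on the log2 scale (adjusted p = 0.031), the only call among 12, beside 7.34% of all genes. Paneth cell markers, secreted products of the crypt base, summed to 19037 to 37705 RPKM in Control, 16779 to 27004 in NFF and 449 to 19364 in SFB, lowest in SFB 2 and 9609 or more in the other SFB libraries. All 13 lay below 0 in SFB against NFF, with a median of -2.09 and 1 called, Pnliprp2, beside 7.34% of all genes. Without SFB 2 the median was -0.57. Without SFB 4 the median was -2.35 and 0 were called, beside 7.03% of all genes. Of 15 leukocyte markers 3 were measured (Ptprc, Rac2 and Lcp1), with sums of 11.4 to 21.8 RPKM in Control, 13.2 to 27.6 in NFF and 2.00 to 9.26 in SFB, and Rac2 fell in SFB against NFF by 2.02 ± 0.39 on the log2 scale (adjusted p = 0.012). The 2 endothelial and 1 stromal markers measured, of 7 listed each, summed to 2.77 and 2.16 RPKM or less.

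**Figure D5:**
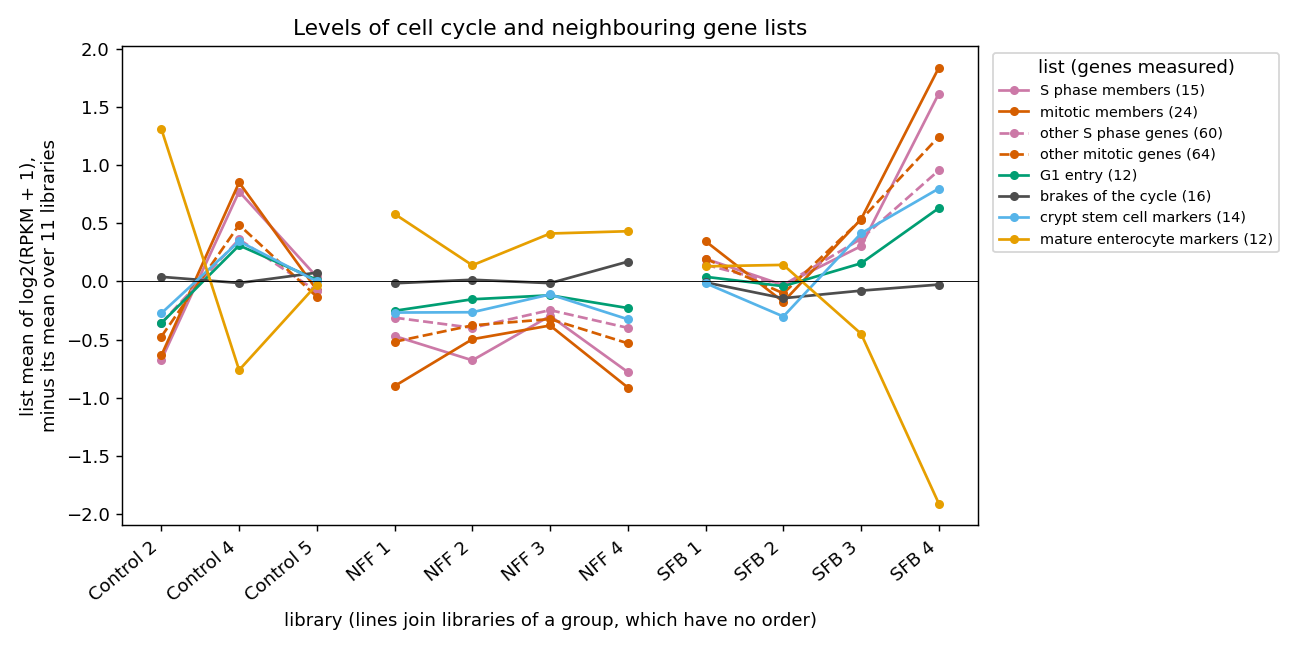
Mean log2(RPKM + 1) of each list in each library, minus the list's mean over the 11 libraries, for the members, the further S phase and mitotic lists, G1 genes, brakes, crypt stem cell markers and mature enterocyte markers; lines join the libraries of a group, which have no order. SFB 4 has the highest level of both member classes and of the stem cell list and the lowest level of the enterocyte list.

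Of the 39 gene models, 10 overlapped another protein-coding gene, as Mcm7 with Cops6 and Ap4m1, Ccna2 with Exosc9 and Cdc20 with Elovl1. The kits do not mark the strand, so reads from stretches shared by such a pair cannot be told apart. How much of the exons they share was not measured. Birc5, Ccnb2, Rrm1 and Tpx2 were not among the 10.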

How the data were processed

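RNA-seq was done on 11 libraries of sorted small-intestinal epithelial cells, with the SMART-seq v4 and NexteraXT kits per the labels' protocols. These kits add no molecular identifiers and do not mark the strand. Reads were aligned with STAR to mm10, per the submitters' processing notes. Not given in the sources used here are the counting tool, its annotation and its gene lengths. The authors deposited RPKM values for 11366 genes, per the file headers, and no counts were recovered from them, so depth is unknown and no counting interval is given. All columns belonged to the 11 libraries. Entrez identifiers were matched to RefSeq (GRCm38.p6, 11360 found), and through them 15 symbols stored as dates were corrected.

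Values were analysed as log2(RPKM + 1). Genes with at least 1 RPKM in at least 3 libraries were tested (10482, with 884 left out). With limma 3.58.1 in R 4.3.3, group means were estimated from the 11 libraries together (8 residual degrees of freedom), and variances were moderated by eBayes, trended on the mean. A gene was called at a Benjamini-Hochberg adjusted p under 0.05 over all tested genes. No set test was run, and lists are described by counts and medians. The same script was tested on simulated data. Figures were drawn with matplotlib 3.10.9 in Python 3.11.15.

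Members and lists were chosen with earlier results of these data known. Named with values in every library were, in each of 6 role groups, the 3 members of highest mean RPKM, and in each comparison every called member and the 2 of largest and the 2 of smallest difference. From each other list up to 4 called genes per direction were named, or, with none called, the 2 of lowest unadjusted p, of which some are not printed. Epcam, Ptprc, Cd44, Lgr5 and Olfm4 were always taken. By rule, the promoter printed for each class was that of the member of highest mean RPKM that held a motif. Pcna met that rule but its window overlapped an annotated UTR, so Mcm6 replaced it. The promoters of Rrm1 and Ccnb2 were printed outside the rule, after their values were seen. Alternatives were 2 other pseudocounts (0.1 and 0.5), no filter and a filter of 3 RPKM, median ratio and quantile scaling, eBayes without trend and with robust estimation, array weights, fits of just the groups compared, a block for the replicate number, each library left out, Control 4 and SFB 4 left out together, and classes without Ccne1, Ccna2 and Hmgb2.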

Additional observations from a re-analysis of the deposited data

Results flagged for a closer look

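The NFF and SFB groups, of 4 libraries each, were examined for 23 members and for 3 class measures (the S phase mean, the mitotic mean and their difference), 52 groups in all. In 5 of them the highest library lay far from the others, the gap to the next library taking up more of the group's range on the log2(RPKM + 1) scale than Dixon's 95% critical value, which chance exceeds in about 1 group in 20. All were SFB 4, where the share of the range was 0.869 for Mcm6 (31.9 RPKM), 0.920 for Pcna (27.4 RPKM), 0.837 for Rrm1 (25.9 RPKM), 0.831 for Rrm2 (23.9 RPKM) and 0.853 for Tpx2 (8.99 RPKM). The genes share that library and are not independent of each other.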

How the results depend on the processing

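All 38 tested members kept their direction in SFB against NFF under every alternative run, and the medians of both classes kept theirs in all 3 comparisons. With single libraries left out, the S phase median ranged from -1.02 to -0.19 in NFF against Control, 0.11 to 0.80 in SFB against Control and 0.70 to 1.32 in SFB against NFF, and the mitotic median from -1.05 to -0.31, 0.16 to 1.05 and 0.86 to 1.54. The S phase median minus the mitotic one was 0.14 in NFF against Control and lay just under 0 without NFF 1 and with array weights. Counts of calls depended on the setting, and the cause was not tested. Genes called in NFF against Control (0) were 0 to 8 with single libraries left out, 40 with array weights, 1 with only the groups compared and 1 without Control 4 and SFB 4. Genes called in SFB against Control (21) were 7 to 94, 1948, 1 and 104 in the same order. Members called there (0 of 38) were 3 with array weights, beside those 1948 of 10482 genes. Genes called in SFB against NFF, in either direction (769 of 10482), were 242 to 1000 with single libraries left out and 991 without Control 4 and SFB 4. They were 819 with either other pseudocount, 892 with median ratio scaling and 1173 with quantile scaling. With array weights they were 4720, and with only the groups compared 841. The counts of members in the same fits stand beside these. Members called in SFB against NFF (4) were 0 to 20 with single libraries left out, 8 and 7 with pseudocounts of 0.1 and 0.5, 9 with median ratio scaling, 13 with quantile scaling, 36 with array weights, 11 with only the groups compared and 20 without Control 4 and SFB 4. The estimation of array weights did not reach its convergence tolerance and gave SFB 1 a weight of 22.1, against 0.152 for SFB 4 to 2.49 for NFF 3 among the others. The SFB mean of that fit thus rests mainly on SFB 1. In Control the weights were 0.289, 0.483 and 2.37 for Control 2, 4 and 5.

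Among the 23 members given with their values in every library, some changed sign near 0, none of them called. With single libraries left out, Mcm4 ranged from -1.14 to 0.023 in NFF against Control, and in SFB against Control Mcm6 ranged from -0.13 to 0.67, Pcna from -0.18 to 0.25, Plk1 from -0.071 to 0.74, Hmgb2 from -0.10 to 0.68 and Gins2 from -0.21 to 0.38. The sign changed without Control 4 for Mcm4, without SFB 4 for the other 5, and without Control 2 for Mcm6, Pcna, Hmgb2 and Gins2. Over all 38 tested members, 7 lay below 0 in SFB against Control without SFB 4 and 6 without Control 2, both counts including Ccne1 and Tk1, and 2 lay above 0 in NFF against Control without Control 4. Without Control 4 and SFB 4, Mcm4 was 0.023 in the first comparison and Pcna -0.013 in the second. In SFB against Control, Gins2 was -0.020 with quantile scaling, and array weights gave Mcm6 -0.041, Pcna -0.18, Rrm2 -0.0059 and Gins2 -0.14.

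Replicate numbers were not taken as pairs: deviations from group means of same-numbered libraries correlated across genes at 0.028, -0.17, -0.30 and -0.27 between NFF and SFB and at -0.17 and -0.28 between Control and NFF. Between Control and SFB they correlated at 0.20 (number 2) and 0.67 (number 4, the libraries of highest member levels). With the replicate number as a block, limma called 335 genes and 2 members in SFB against NFF, and 0 genes in SFB against Control (624 at an unadjusted p under 0.05). The number of libraries, 3 to 4 per group, and the unknown depth limit the precision of members under about 1 RPKM.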
